A study of Homo sapiens with 18 samples.

Results

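The retinoic acid loci described here were RARA and RARB, which encode nuclear receptors for retinoic acid, CYP26A1, CYP26B1 and DHRS3, which encode enzymes of its metabolism, and CRABP2, which encodes its binding protein. Members were all accessible regions within 50 kb of these 6 gene bodies on hg19. Membership was set by position, but the loci were chosen with earlier results of these data known. Peaks of 18 libraries merged at an overlap of at least 1 bp into 66 such regions of 150322 in all, and 513 of the 781454 peaks lay in the windows. The loci held 13 regions at RARA, 19 at RARB, 7 at CYP26A1, 7 at CYP26B1, 17 at CRABP2 and 3 at DHRS3. Each region is named by its gene and the distance of its centre from the gene's start in kb, with upstream distances negative.

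The libraries were ATAC-seq libraries, in which a transposase cuts and tags open DNA, from Kelly and BE2C, established human neuroblastoma lines that the series title places among those with MYCN amplification. Cells of each line had been transduced with a lentivirus carrying the hairpin shAhR-1 or shAhR-2, both against AHR, the aryl hydrocarbon receptor, or the empty vector pLKO. There were 3 libraries in each of the 6 groups, and all 18 came from transduced cells in growth medium, with no ligand or retinoid named in the labels. The labels do not say whether the 3 came from separate cultures, and without separate cultures p-values cover just the spread among libraries, which may be technical. The AHR transcript was not analysed here, so the depth of the knockdown is unknown. The lists held 9204 to 24424 peaks in Kelly shAhR-1, 60457 to 65740 in Kelly shAhR-2 and 19984 to 34848 in Kelly pLKO. They held 25660 to 45023 peaks in BE2C shAhR-1, 75798 to 81637 in BE2C shAhR-2 and 34343 to 44397 in BE2C pLKO. The genome-wide background, the lowest local background that the peak values imply and a stand-in for depth, was 2.56 to 4.42 reads in shAhR-2 libraries, 0.601 to 1.75 in shAhR-1 libraries and 1.26 to 1.92 in pLKO libraries. For a peak present only in shAhR-2 lists, depth and hairpin cannot be told apart, and presence was compared after each list was shortened to the same number of its strongest peaks.

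Retinoic acid is a differentiating signal for neuroblastoma cells and is used to treat the disease. It is carried into the nucleus by CRABP2 and binds RAR receptors, which sit with RXR partners on paired hexamers known as retinoic acid response elements. RARB and CYP26A1 are textbook direct targets, with an element of the DR5 type (direct repeats with a spacer of 5 bases) beside the start, so that the signal raises both a receptor and the enzyme that removes the ligand. CYP26 enzymes oxidise retinoic acid and DHRS3 returns retinaldehyde to retinol, which lowers its synthesis.

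Promoter sequences from RefSeq on GRCh38.p14, 250 bases before to 50 after each start on the strand of the gene, are shown for the starts on which the results turn. All 6 genes matched by symbol. Capitals mark a DR5, which is a hexamer followed after 5 bases by another in the same direction, the AHR core GCGTG and the MYC-type E-box CACGTG, which is its own complement. All were searched on both strands. The hexamers allowed were AGGTCA with the variants AGTTCA and then GGGTCA and then GGTTCA, and one of them alone was in 38.6% of all RefSeq promoters. The RARB start is the one whose distance to the gene's end equals that of the hg19 gene body used here. The CYP26A1 start lies 0.418 kb inside the gene, and the RARA starts lie 9.06 and 33.0 kb after the outermost RARA start, in the genomic neighbourhood of the RARA +8.6 kb and +32.6 kb regions. These distances were measured within GRCh38.p14 and no coordinate was converted.
RARB start on chromosome 3, plus strand: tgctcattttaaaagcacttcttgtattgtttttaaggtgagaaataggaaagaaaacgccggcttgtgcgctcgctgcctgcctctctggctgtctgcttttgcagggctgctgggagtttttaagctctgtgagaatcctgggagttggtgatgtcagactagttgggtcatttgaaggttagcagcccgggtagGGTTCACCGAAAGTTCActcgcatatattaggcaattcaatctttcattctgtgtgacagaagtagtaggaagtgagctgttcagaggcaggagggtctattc
CYP26A1 inner start on chromosome 10, plus strand: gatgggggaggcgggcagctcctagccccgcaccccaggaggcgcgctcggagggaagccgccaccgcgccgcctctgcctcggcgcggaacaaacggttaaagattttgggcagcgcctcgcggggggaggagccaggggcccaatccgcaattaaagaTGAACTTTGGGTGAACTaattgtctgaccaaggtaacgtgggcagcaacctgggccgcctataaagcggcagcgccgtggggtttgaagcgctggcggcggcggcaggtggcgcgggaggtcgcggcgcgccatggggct
RARA first inner start on chromosome 17, plus strand: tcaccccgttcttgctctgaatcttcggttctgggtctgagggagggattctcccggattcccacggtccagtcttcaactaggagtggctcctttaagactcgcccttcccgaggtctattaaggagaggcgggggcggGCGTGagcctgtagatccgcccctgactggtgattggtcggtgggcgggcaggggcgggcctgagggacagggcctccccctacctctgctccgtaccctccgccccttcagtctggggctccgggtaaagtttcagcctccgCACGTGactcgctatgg
RARA last inner start on chromosome 17, plus strand: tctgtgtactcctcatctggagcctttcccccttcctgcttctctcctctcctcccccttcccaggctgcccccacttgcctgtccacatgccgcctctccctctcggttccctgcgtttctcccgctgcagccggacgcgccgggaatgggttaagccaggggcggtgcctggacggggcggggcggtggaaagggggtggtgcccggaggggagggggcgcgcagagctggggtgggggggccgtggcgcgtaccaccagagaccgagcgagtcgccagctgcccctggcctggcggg

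A DR5 was found in 31 of 35116 RefSeq promoters, or 0.0883%. Among the 14 RefSeq starts of the 6 genes, it was found at the RARB start shown, at -53 to -37, and at the inner CYP26A1 start, at -90 to -74, where it runs on the minus strand. The core GCGTG was in 36.5% of all promoters and in 3 of the 14, the first inner RARA start, the outermost RARB start and the outermost DHRS3 start. The E-box was in 7.26% of all promoters and in 2 of the 14, the first inner RARA start and, at 2 sites, the outermost CYP26A1 start. A match is a match of letters and no evidence of binding.

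Across the 18 libraries the loci differed in how much open chromatin they showed. CRABP2 had peaks in at least 9 libraries in 12 of its 17 regions, RARA in 7 of 13, RARB in 4 of 19, CYP26B1 in 3 of 7, DHRS3 in 1 of 3 and CYP26A1 in 0 of 7. Over the 6 loci this was 40.9% of member regions, against 21.4% of all regions. Peaks in every library were found in 3 member regions, RARA -21.2 kb, CRABP2 -22.9 kb and CRABP2 -35.4 kb, or 4.55%, against 4.22% of all regions. Peaks in shAhR-2 lists alone made up 34.8% of member regions, against 50.6% of all regions.

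**Figure D1:**
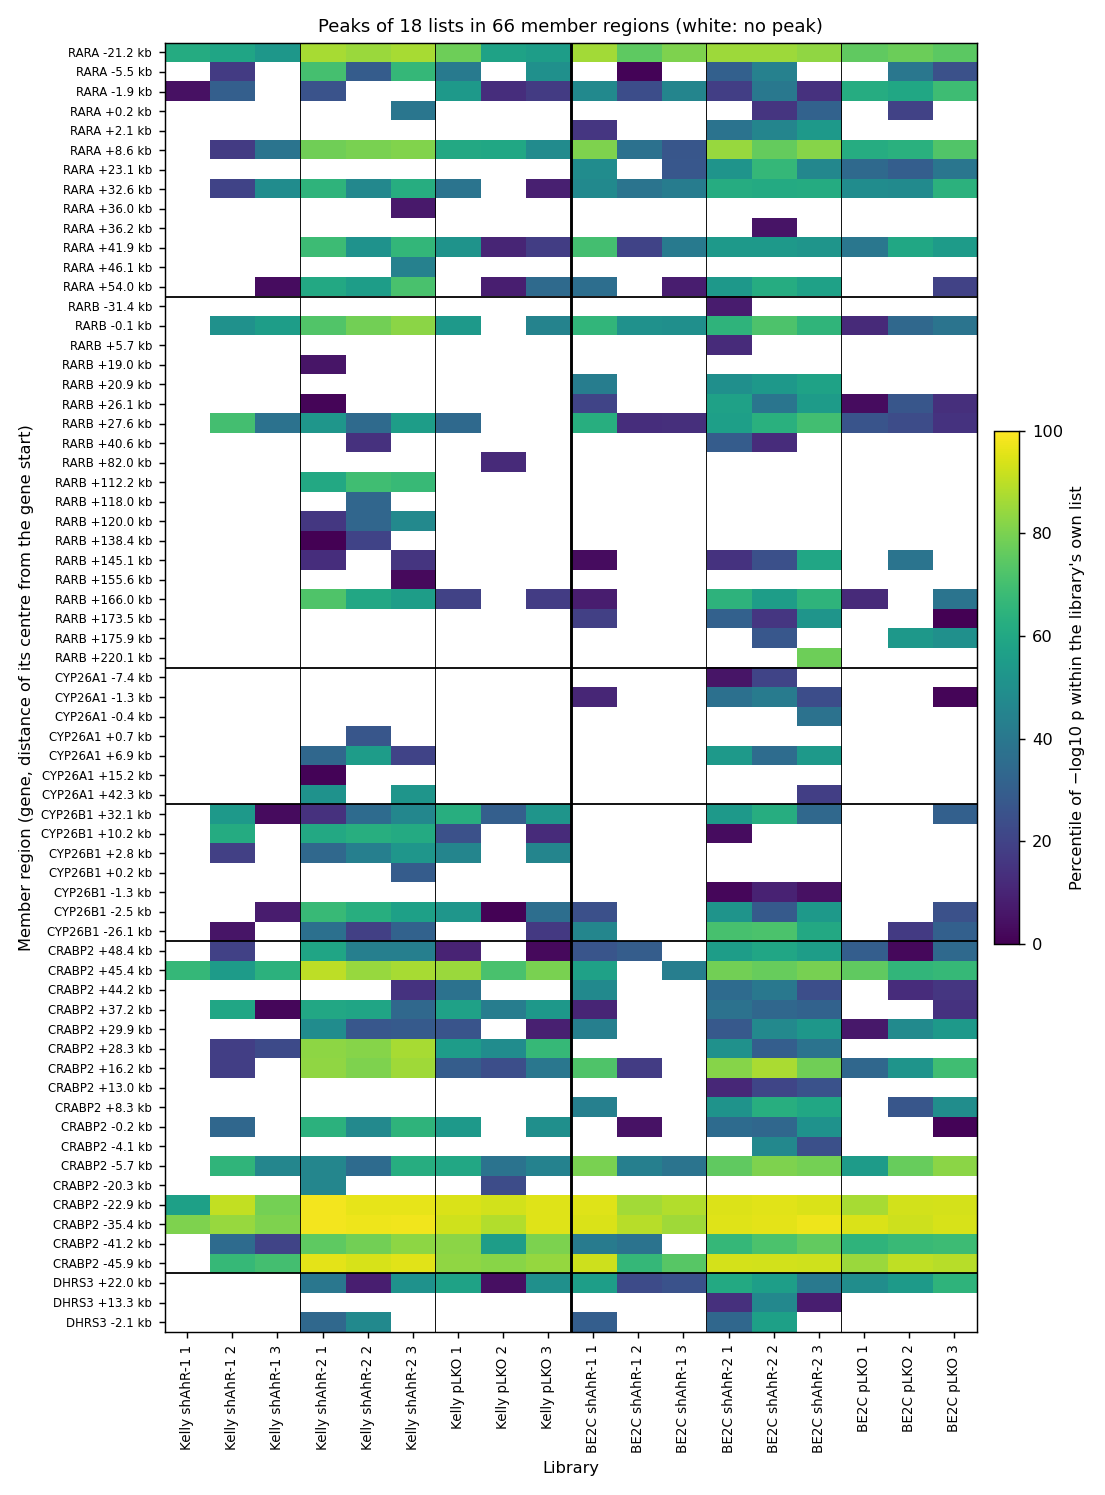
Each row is 1 of the 66 member regions, by gene and position, each column 1 of the 18 libraries, and the colour the percentile of the strongest peak of that region within the library's own list (100 is the strongest). White means that no peak lay in the window; the CRABP2 -22.9 kb and -35.4 kb rows are filled in all 18 columns, and CYP26A1 rows are mostly white outside shAhR-2. At RARB +220.1 kb, which only touches the window's edge, the row shows the 1 library whose peak reaches into the window.

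RARB, the receptor gene that retinoic acid itself induces, was open at its start. The RARB -0.1 kb region (chromosome 3, 25468996 to 25470344) had a peak in 16 of 18 libraries, all but Kelly shAhR-1 replicate 1 and Kelly pLKO replicate 2, the libraries with the 2 shortest lists. Its summits lay between -167 and 66 bp from the start with a median of -54 bp, beside the DR5 printed above. No other start used for the 6 loci was open as widely: within 1 kb of it, RARA had a peak in 4 libraries, CYP26B1 in 1, CRABP2 in 11 and DHRS3 in 0, and the 3 CYP26A1 regions had peaks in 5, 1 and 1.

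**Figure D2:**
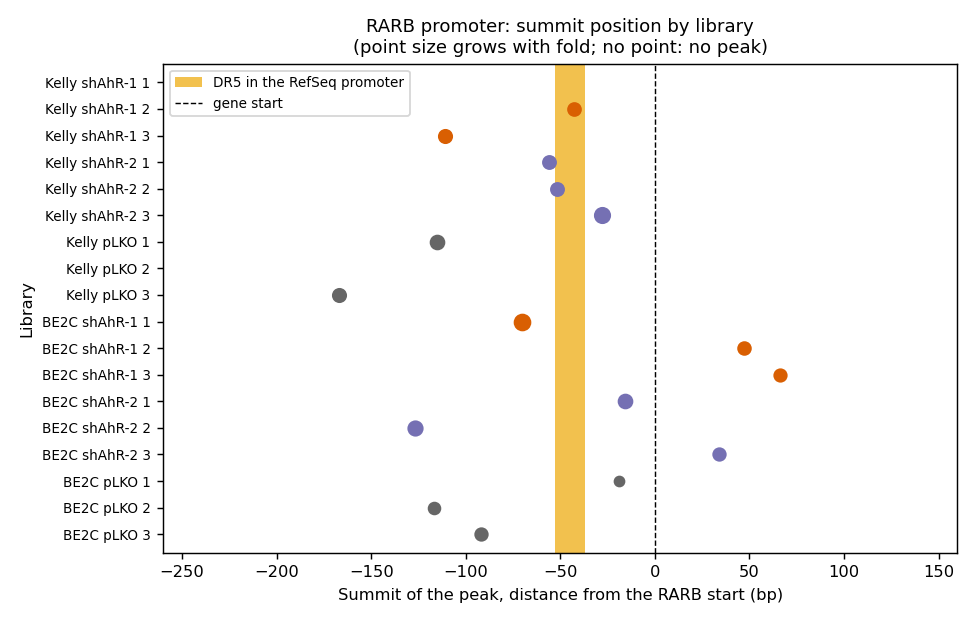
Each point is the summit of the RARB -0.1 kb peak in 1 library (rows), placed by its distance in bp from the gene start; the yellow band is the DR5 at -53 to -37 in the RefSeq promoter, and points grow with fold. Summits from 16 libraries fall between -167 and 66 bp, on both sides of the band, and 2 Kelly libraries have none.

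In BE2C this promoter was stronger with shAhR-1 than with the empty vector. Strength is given as a percentile by −log10 p among the 18250 regions that had a peak in all 9 BE2C libraries, with 100 the strongest. The RARB -0.1 kb region stood at percentiles 24.1, 30.8 and 34.0 in BE2C shAhR-1, at 7.30, 12.03 and 5.61 in BE2C shAhR-2 and at 1.14, 6.19 and 3.87 in BE2C pLKO. All 3 shAhR-1 libraries were above every other BE2C library, while the shAhR-2 and pLKO ranges overlapped. As normal scores of the rank, fitted over all 18250 regions with limma and adjusted over them by Benjamini-Hochberg, the shift was 1.32 ± 0.22 (SE, n = 3 each) for shAhR-1, with an adjusted p of 0.0109. It was the 1 of 12 tested member regions that rose with shAhR-1, against 2.37% of all regions, and 0 of 12 fell, against 1.17%. For shAhR-2 the shift was 0.46 ± 0.22 with an adjusted p of 0.154 in limma, and 0 of 12 members rose, against 11.7%; ranked by fold instead of −log10 p it was 0.91, with an adjusted p of 0.0210. Set directly against shAhR-1, a contrast added after the data were seen, shAhR-2 was lower by limma, with a shift of -0.87 and an adjusted p of 0.0203. That contrast did not pass when ranked by fold (adjusted p of 0.267 in limma), nor without shAhR-1 replicate 3, shAhR-2 replicate 1 or shAhR-2 replicate 3 (0.0525 to 0.0825).

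By fold the groups were closer. The fold over local background, the authors' value, was 9.24, 6.48 and 6.22 in BE2C shAhR-1, 7.47, 7.97 and 6.31 in BE2C shAhR-2 and 3.98, 5.61 and 6.30 in BE2C pLKO, and shAhR-1 and pLKO overlapped. The summit pileup in units of the library's genome-wide background was 12.2 ± 3.65, 10.9 ± 1.96 and 7.94 ± 1.73 in the same order (SD, n = 3 each). Over all 18250 common regions the median fold was 6.19 to 9.15 in BE2C shAhR-1, 7.56 to 8.55 in BE2C shAhR-2 and 7.95 to 9.53 in BE2C pLKO. After lists were shortened to 25660 peaks, the region had a peak in 3 of 3 BE2C shAhR-1, 1 of 3 BE2C shAhR-2 and 1 of 3 BE2C pLKO libraries, the last of these being pLKO replicate 2.

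In Kelly the RARB promoter could not be ranked in all 9 libraries, since it lacked a peak in 2. In an alternative added after the data were seen, without those 2 libraries, it stood among 15862 regions at percentiles 31.5 and 38.7 in Kelly shAhR-1, at 16.0, 31.2 and 34.7 in Kelly shAhR-2 and at 14.99 and 14.6 in Kelly pLKO. Among the libraries kept, every hairpin library was above both of pLKO. Those left out, Kelly shAhR-1 replicate 1 and Kelly pLKO replicate 2, have no peak there, so the ordering covers only libraries with a peak. By fold Kelly shAhR-1 was not higher, with means of 6.80 in shAhR-1 (n = 2), 7.45 in shAhR-2 (n = 3) and 7.21 in pLKO (n = 2). The summit pileup over the genome-wide background averaged 11.1, 17.9 and 14.2 in that order. The shifts in limma were 0.66 ± 0.26 for shAhR-1, with an adjusted p of 0.165, and 0.42 ± 0.23 for shAhR-2, with an adjusted p of 0.289, and neither passed. The difference between the lines in the shAhR-1 shift, Kelly minus BE2C, was -0.64 ± 0.34 with an adjusted p of 0.399 in limma.

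Inside the RARB gene, RARB +27.6 kb had peaks in 15 libraries and RARB +166.0 kb in 11. The BE2C percentiles of RARB +27.6 kb were 19.8, 2.92 and 4.12 in shAhR-1, 3.13, 5.17 and 8.66 in shAhR-2 and 4.71, 2.75 and 0.362 in pLKO, and the groups overlapped. RARB +112.2 kb and +120.0 kb had peaks in all 3 Kelly shAhR-2 libraries and in no other library of either line. At RARB +112.2 kb these peaks had folds of 6.06, 6.68 and 7.08 and stood at percentiles 60.4, 69.3 and 67.6 of their own lists. At RARB +120.0 kb the folds were 3.58, 4.07 and 4.98, and the percentiles 16.2, 33.2 and 46.9. Neither region was in any list shortened to 9204 peaks. RARB +220.1 kb, whose nearest gene by order in RefSeq beyond RARB is TOP2B, a topoisomerase gene, was present in 3 of 3 BE2C shAhR-2, 0 of 3 BE2C shAhR-1 and 0 of 3 BE2C pLKO libraries at the matched length. In full lists it was present in 3, 2 and 1 of 3 libraries of these groups and in 5 Kelly libraries, and without BE2C shAhR-2 replicate 3 it no longer counted among the members. Only 1 library's peak reached into the window there.

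RARA, the receptor expressed in most cells, had peaks in more libraries around its inner starts than at its outermost one. The RARA +0.2 kb region at the outermost start had peaks in 4 libraries, whereas RARA -1.9 kb, upstream of that start, had peaks in 15. RARA +8.6 kb (chromosome 17, 38473058 to 38474964), which spans 7.63 to 9.54 kb from that start, had peaks in 17 libraries, and RARA +32.6 kb (38497432 to 38498652), which spans 32.0 to 33.2 kb, in 16. RefSeq places the 2 inner RARA starts printed above 9.06 and 33.0 kb along the gene on GRCh38.p14. RARA -21.2 kb, on the side of CDC6, a DNA replication gene, was present in all 18. Whether this region sits at a start of CDC6 was not analysed here.

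Of the 5 RARA regions ranked in BE2C, 3 fell with shAhR-2, 1 of them also when ranked by fold. RARA -1.9 kb (38463140 to 38463948) stood at percentiles 0.0630, 0.507 and 0.0192 in BE2C shAhR-2, at 6.17, 7.56 and 29.3 in BE2C shAhR-1 and at 33.8, 27.4 and 30.6 in BE2C pLKO. The shAhR-2 libraries lay below all others, at the bottom of the common regions. The limma shift for shAhR-2 was -2.61 ± 0.30 with an adjusted p of 0.000783, and for shAhR-1 it was -0.67 ± 0.30 with an adjusted p of 0.246. Its fold averaged 2.73 ± 0.476 in shAhR-2, 4.38 ± 0.537 in shAhR-1 and 5.93 ± 0.388 in pLKO (SD, n = 3 each). The summit pileup over the genome-wide background averaged 8.51 ± 2.09, 14.5 ± 3.41 and 23.9 ± 4.50 in that order. The direct contrast of shAhR-2 with shAhR-1 gave -1.94 with an adjusted p of 0.00314 in limma. It passed in 8 of 9 alternatives, with an adjusted p of 0.135 in limma in the other, and in 6 of 6 fits with a library left out.

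Deeper in the gene, RARA +32.6 kb stood at percentiles 5.49, 4.15 and 3.61 in BE2C shAhR-2, at 6.09, 18.6 and 25.6 in BE2C shAhR-1 and at 18.6, 15.1 and 23.5 in BE2C pLKO. Here too the shAhR-2 libraries were the lowest, with a limma shift of -0.83 ± 0.23 and an adjusted p of 0.0238. RARA +41.9 kb stood at 2.50, 2.04 and 1.36 in shAhR-2, at 31.1, 5.95 and 24.6 in shAhR-1 and at 11.6, 27.8 and 12.9 in pLKO, with a limma shift for shAhR-2 of -1.10 ± 0.28 and an adjusted p of 0.0155. Both calls were less firm than that at RARA -1.9 kb. Ranked by fold, neither passed (limma adjusted p of 0.313 and 0.200), and leaving out 1 BE2C library at a time kept RARA -1.9 kb past the threshold in 6 of 6 fits. RARA +32.6 kb passed in 1 of 6, that without pLKO replicate 2, with adjusted p between 0.0446 and 0.0843 in limma. RARA +41.9 kb passed in 3 of 6, and did not pass without shAhR-2 replicate 2, shAhR-2 replicate 3 or pLKO replicate 2, with adjusted p between 0.0274 and 0.0634 in limma. The other 2 RARA regions did not pass. RARA +8.6 kb stood at 41.1, 18.7 and 29.3 in shAhR-2, 53.0, 17.5 and 12.3 in shAhR-1 and 34.2, 33.1 and 38.0 in pLKO, with a limma shift for shAhR-2 of -0.17 ± 0.30 and an adjusted p of 0.710. RARA -21.2 kb stood at 42.5, 41.1 and 33.4 in shAhR-2, 66.02, 63.6 and 74.0 in shAhR-1 and 55.4, 55.9 and 41.7 in pLKO, with a limma shift for shAhR-2 of -0.31 ± 0.19 and an adjusted p of 0.252.

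**Figure D3:**
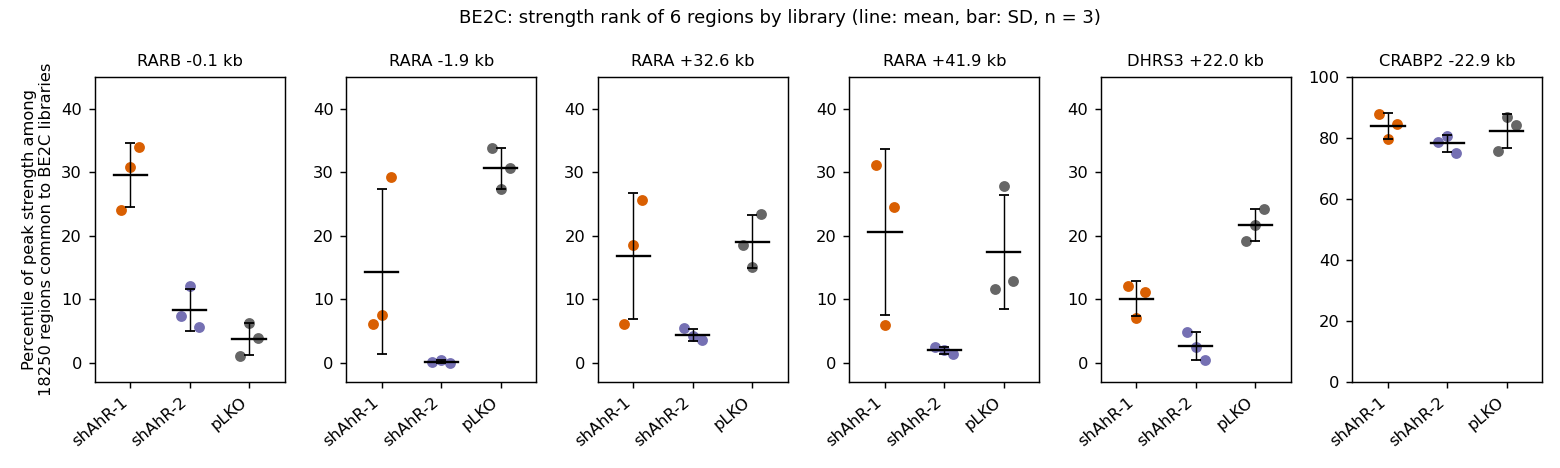
Points are the 3 libraries of each BE2C group, placed by the percentile of peak strength among 18250 common regions; lines are means, bars SD, and the right-hand panel has a wider axis. The RARB -0.1 kb points of shAhR-1 (24.1 to 34.0) lie above both other groups, the shAhR-2 points of RARA -1.9 kb (0.0192 to 0.507) and DHRS3 +22 kb (0.419 to 4.87) lie below the rest, and CRABP2 -22.9 kb overlaps in all groups.

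DHRS3, the retinaldehyde reductase gene, had no peak within 1 kb of its start. DHRS3 +22 kb (chromosome 1, 12655132 to 12656582) was its main open site, with peaks in 15 libraries and none in the 3 Kelly shAhR-1 libraries. It spans 21.2 to 22.7 kb from the start used, and an inner DHRS3 start in RefSeq lies 21.2 kb nearer the gene's end than that start. In BE2C it stood at percentiles 4.87, 2.52 and 0.419 in shAhR-2, 12.2, 7.06 and 11.1 in shAhR-1 and 19.2, 21.7 and 24.3 in pLKO, 3 groups that did not overlap. The limma shift for shAhR-2 was -1.30 ± 0.24 with an adjusted p of 0.00416, and for shAhR-1 it was -0.50 ± 0.24 with an adjusted p of 0.276. Ranked by fold the shAhR-2 shift was -0.47 with an adjusted p of 0.228. The local background at the peaks called in the DHRS3 window was 1.00 to 1.04 times the genome-wide level in BE2C shAhR-2, 1.11 to 1.25 in BE2C shAhR-1 and 1.81 to 1.93 in BE2C pLKO. Each value is a median over the library's own peaks there, 1 in each pLKO library but 2 or 3 in shAhR-2 libraries. The groups are thus not compared at the same sites, and the part of local background in the result was not tested.

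With shAhR-2 in BE2C, then, 4 of 12 members fell, RARA -1.9, +32.6 and +41.9 kb and DHRS3 +22 kb, against 12.7% of all 18250 regions. The median shift was -0.24 over the 12 members and 0.01 over all regions. The part of depth in these 4 falls was not tested. Against shAhR-1 directly, 5 of 12 members were lower with shAhR-2, against 10.7%, and 0 of 12 higher, against 9.42%. The 5 were DHRS3 +22 kb, RARA -1.9, +41.9 and -21.2 kb and RARB -0.1 kb, without RARA +32.6 kb. Of these, RARA -21.2 kb and RARB -0.1 kb had not passed for shAhR-2 against pLKO. That count of 5 was 2 on the percentile scale, 1 when ranked by fold, 2 without shAhR-2 replicate 2 and 1 without shAhR-2 replicate 3. Over all regions, those lower were 1803 of 18250, 1930 of 18250, 901 of 18261 and 894 of 18254 in that order. Lists shortened to 25660 peaks were cut by the same −log10 p that gives the rank, so presence in them is no separate support. The same 4 regions had a peak in 3 of 3 pLKO and 0 of 3 shAhR-2 libraries, 4 of 26 member regions against 3.2% of all 41417, and 1 of 26, RARB +220.1 kb, had a peak in 3 of 3 shAhR-2 and 0 of 3 pLKO libraries, against 3.59%. In full lists all 4 had a peak in 3 of 3 shAhR-2 libraries, and 0 of 52 members were lost, against 0.16% of 112448 regions. With shAhR-1, 0 of 26 were gained, against 1.37%, and 0 of 26 lost, against 1.69%. Leaving out 1 library moved these counts: RARB -0.1 kb counted as gained without pLKO replicate 2, RARB +27.6 kb as gained and RARB +175.9 kb as lost without pLKO replicate 1, and CRABP2 -41.2 kb as lost without shAhR-1 replicate 2. Presence in 3 against 3 libraries carries no test, since the smallest two-sided exact permutation p is 0.1.

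CYP26A1, which degrades retinoic acid and is induced by it, had the fewest peaks in all, 19 over the 18 libraries, against 23 at DHRS3, whose window is longer. Full lists held 0 to 4 peaks a library in its window, none of them in any Kelly shAhR-1 or Kelly pLKO library, and lists at the matched length held 0 in all 18. CYP26A1 -1.3 kb (chromosome 10, 94831495 to 94832284) had peaks in 3 of 3 BE2C shAhR-2, 1 of 3 BE2C shAhR-1 and 1 of 3 BE2C pLKO libraries, and in 0 of 9 Kelly libraries. CYP26A1 +6.9 kb, beyond the gene's end, had peaks in 3 of 3 shAhR-2 libraries of each line and in no other library. Its folds were 4.34, 5.68 and 3.65 in Kelly shAhR-2 and 6.45, 4.40 and 5.35 in BE2C shAhR-2.

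CYP26B1, the other retinoic acid hydroxylase gene, was open beside rather than at its start. The CYP26B1 +0.2 kb region had a peak in 1 library, Kelly shAhR-2 replicate 3, whereas CYP26B1 -2.5 kb (chromosome 2, 72377051 to 72377933) had peaks in 12, CYP26B1 +32.1 kb in 12 and CYP26B1 -26.1 kb in 11. CYP26B1 -2.5 kb was present in 1 of 3 Kelly shAhR-1, 3 of 3 Kelly shAhR-2 and 3 of 3 Kelly pLKO libraries, and in 1, 3 and 1 of 3 BE2C libraries in the same order. Inside the gene, CYP26B1 +2.8 kb had peaks in 6 Kelly and 0 BE2C libraries and CYP26B1 +10.2 kb in 6 Kelly and 1 BE2C library.

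CRABP2, which hands retinoic acid to the receptors, had the most and the strongest peaks. CRABP2 -22.9 kb stood at the median at percentile 93.9 of a library's own list and CRABP2 -35.4 kb at 94.1, and CRABP2 -45.9 kb at 89.4 in 17 libraries. The genes that follow on this side in RefSeq order are ISG20L2, METTL25B, MRPL24 and HDGF, and NES and BCAN, both expressed in neural cells, lie on the other. Whether the strong regions sit at starts of those genes was not analysed here. In BE2C, CRABP2 -22.9 kb averaged percentiles of 78.3 ± 2.87 in shAhR-2, 84.0 ± 4.24 in shAhR-1 and 82.3 ± 5.71 in pLKO (SD, n = 3 each), and neither hairpin passed in limma (adjusted p of 0.567 for shAhR-2 and 0.887 for shAhR-1). The CRABP2 start itself, at CRABP2 -0.2 kb, was called in 1 of 3 Kelly shAhR-1, 3 of 3 Kelly shAhR-2 and 2 of 3 Kelly pLKO libraries, and in 1, 3 and 1 of 3 BE2C libraries. The window's local background was also high, 2.58 to 6.0 times the genome-wide level in Kelly and 3.29 to 4.76 in BE2C, against at most 3.07 in either line at the other 5 loci.

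In Kelly the 1 member region that changed presence at the matched length of 9204 peaks was CRABP2 -41.2 kb (chromosome 1, 156716381 to 156717303). It was in 0 of 3 shAhR-1, 0 of 3 shAhR-2 and 3 of 3 pLKO lists, 1 of 11 member regions lost with each hairpin, against 1.61% of all 16749 regions for shAhR-1, 2.9% for shAhR-2 and 0.519% for both. No member of the 11 was gained, against 1.33% for shAhR-1 and 2.84% for shAhR-2. In full lists the region had a peak in 2 of 3 shAhR-1, 3 of 3 shAhR-2 and 3 of 3 pLKO libraries, with folds of 3.97 and 3.23 in shAhR-1, 4.17, 4.73 and 5.39 in shAhR-2 and 7.03, 4.31 and 7.84 in pLKO. With neither hairpin was it called lost in full lists or at a −log10 q of at least 5. Nor was it when peaks had to cover 50% of a region or lists were shortened by fold. The lost call for shAhR-1 was no longer made without Kelly shAhR-1 replicate 1, whose list sets the matched length; of 29 members 2 were then lost, DHRS3 +22 kb and CYP26B1 -2.5 kb, against 2.07% of 33720 regions, and 2 gained, RARB +27.6 kb and RARA +32.6 kb, against 3.31%.

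By strength rank, 4 member regions could be tested in all 9 Kelly libraries, RARA -21.2 kb and CRABP2 +45.4, -22.9 and -35.4 kb. None of the 4 rose or fell by limma with shAhR-1, against 1.58% of 6854 regions higher and 0.175% lower, nor with shAhR-2, against 1.82% higher and 3.06% lower. At an unadjusted p under 0.05 there were 1 for shAhR-1 and 0 for shAhR-2. Without the 2 shortest lists, 13 members could be tested, and CRABP2 -41.2 kb was the 1 that fell, with shAhR-1 (against 2.06% of 15862 regions) and with shAhR-2 (against 5.76%). It stood at percentiles 16.3 and 6.71 in Kelly shAhR-1, 19.2, 31.2 and 35.4 in Kelly shAhR-2 and 61.7 and 63.4 in Kelly pLKO, with no overlap, but the libraries left out were shAhR-1 replicate 1, which has no peak there, and pLKO replicate 2, which has the lowest pLKO fold. The limma shifts were -1.56 ± 0.26 for shAhR-1, with an adjusted p of 0.00765, and -0.90 ± 0.24 for shAhR-2, with an adjusted p of 0.0423. Those 13 members included no region that rose, against 5.31% for shAhR-1 and 4.68% for shAhR-2. In BE2C the same region was present at the matched length in 1 of 3 shAhR-1, 3 of 3 shAhR-2 and 3 of 3 pLKO libraries.

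In full lists, members were gained with shAhR-2 in no larger share than all regions, and depth and hairpin cannot be told apart there. In BE2C, 7 of 52 member regions had a peak in 3 of 3 shAhR-2 and 0 of 3 pLKO libraries, against 13.5% of all 112448 regions, and in Kelly 3 of 49, against 12.1% of 100814. The 7 were DHRS3 +13.3 kb, CRABP2 +28.3 and +13.0 kb, CYP26B1 -1.3 kb, RARB +20.9 kb, CYP26A1 +6.9 kb and RARA +2.1 kb, and the 3 were RARB +112.2 and +120.0 kb and CYP26A1 +6.9 kb. With shAhR-1 in Kelly, DHRS3 +22 kb and RARA +41.9 kb were lost in full lists, 2 of 49, against 0.908%. Kelly shAhR-1 lists held 9204 to 24424 peaks, against 19984 to 34848 in Kelly pLKO, so depth and hairpin cannot be told apart here either. Neither region was in any Kelly list shortened to 9204 peaks. Relative to the list, the 6 loci together held 5.97 ± 0.0443 peaks per 10000 in Kelly shAhR-2, 7.19 ± 2.03 in Kelly shAhR-1 and 8.86 ± 0.966 in Kelly pLKO, and 5.88 ± 0.534, 6.41 ± 0.643 and 6.79 ± 0.853 in BE2C in that order (SD, n = 3 each).

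**Figure D4:**
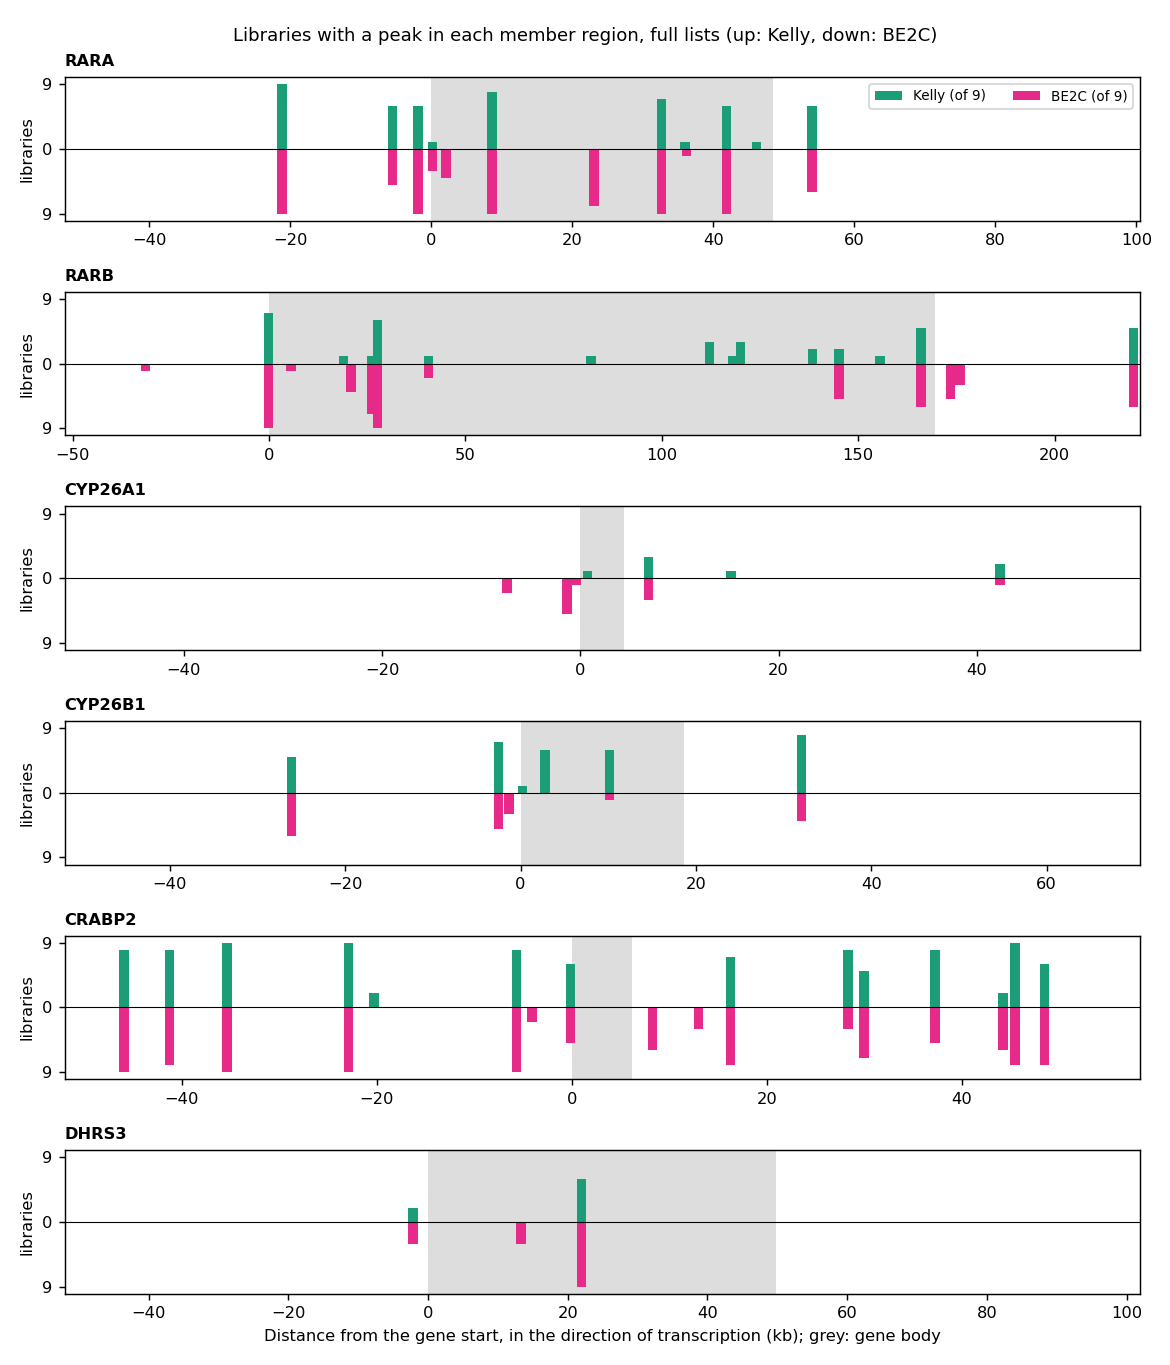
For each locus, bars at the position of a member region (kb from the gene start, gene body in grey) give how many of 9 libraries have a peak in full lists, upward for Kelly and downward for BE2C. CRABP2 has tall bars in both directions on both sides of the gene, RARA +23.1 kb has a BE2C bar of 8 and no Kelly bar, and CYP26B1 +2.8 kb a Kelly bar of 6 and no BE2C bar.

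Kelly and BE2C were compared over the 9 libraries of each, with labels exchanged within each condition (two-sided exact permutation test, 8000 arrangements, smallest p 0.00025). At 9204 peaks a list, 0 of 11 member regions passed after Benjamini-Hochberg adjustment over 19921 regions, against 0.959% higher in Kelly and 1.89% higher in BE2C, and 1 had an unadjusted p under 0.05. That one was CRABP2 +45.4 kb, in 7 Kelly and 1 BE2C libraries, with an exact permutation p of 0.016 and an adjusted p of 0.198. In full lists 0 of 66 passed, against 0.0459% higher in Kelly and 0.518% higher in BE2C, and 8 had an unadjusted p under 0.05. The lowest was RARA +23.1 kb, in 0 Kelly and 8 BE2C libraries, with an adjusted p of 0.0720 in the exact permutation test; the local background of the RARA window was 1.51 to 2.82 times the genome-wide level in Kelly and 2.50 to 3.07 in BE2C. CRABP2 +8.3 kb was in 0 Kelly and 6 BE2C libraries, RARB +26.1 kb in 1 and 7, and CYP26B1 +2.8 kb in 6 and 0, each with an adjusted p of 0.226 in that exact test. Without Kelly shAhR-1 replicate 1 the lists could be longer, and CRABP2 +28.3 kb passed, in 8 of 8 Kelly and 0 of 9 BE2C libraries, with an adjusted p of 0.0117 in the exact permutation test. It was 1 of 33 members higher in Kelly, against 793 of 41632 regions, and 0 of 33 were higher in BE2C, against 1338.

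By strength rank, the 3 member regions present in all 18 libraries did not differ between the lines in limma, against 20.5% of 6343 regions higher in Kelly and 21.0% lower. Their shifts were 0.23 ± 0.15 at CRABP2 -22.9 kb, 0.15 ± 0.14 at CRABP2 -35.4 kb and -0.18 ± 0.17 at RARA -21.2 kb, and 0 of 3 had an unadjusted p under 0.05. The RARB promoter could be ranked beside BE2C only without the 2 Kelly libraries that have no peak there, which removes the lowest Kelly values, so its line difference is given as values with no test. Among 12805 regions it stood at 9.50 to 31.6 in the 7 remaining Kelly libraries, with a median of 24.0, and at 0.394 to 21.5 in the 9 BE2C libraries, with a median of 2.78. By fold the lines overlapped, at 6.62 to 8.78 in those Kelly libraries and 3.98 to 9.24 in BE2C. The median local background at RARB was 1.39 times the genome-wide level in Kelly and 1.18 in BE2C. With single libraries left out, 2 members that lack a peak in some library could be ranked and passed in limma. Without Kelly shAhR-1 replicate 1, CRABP2 -5.7 kb was lower in Kelly (-0.56, adjusted p of 0.0389 in limma). It was 1 of 6 members, against 2472 of 11739 regions lower. Without BE2C shAhR-1 replicate 2, CRABP2 +45.4 kb was higher in Kelly (0.80, adjusted p of 0.00104 in limma). It was 1 of 4 members, against 1283 of 6427 regions higher.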

How the data were processed

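ATAC-seq peaks of 18 libraries were used. The submitters' processing notes name the peak caller MACS2 2.1.0, the aligner BWA 0.7.17, Trimmomatic 0.33, deepTools 3.1.3 and CASAVA 1.8.2, and the build hg19. No source used here says how duplicates and mitochondrial reads were handled, or whether reads were shifted to the transposase cut, a step that would displace summits slightly. Per the labels' protocols, transposition took 30 min and amplification 10 cycles. The authors deposited 1 peak list per library, not pooled. Each peak has an integer score, the fold enrichment at the summit as a linear ratio, a −log10 p-value and a −log10 q-value, all as the authors deposited them, and used only within a list. The highest deposited q-value was 0.05. No peak means that none passed, not that the site was closed.

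Members and lists were chosen with earlier results of these data known. Peaks on chromosomes 1 to 22 and X were merged into regions (overlap of at least 1 bp). For presence, lists were shortened by −log10 p to the shortest list, 9204 peaks in Kelly and across lines and 25660 in BE2C. Strength ranks used regions with a peak in every full list of the comparison. Ranks became normal scores for limma 3.58.1 in R 4.3.3, with Benjamini-Hochberg adjustment over all regions at 0.05. Summit pileup and local background were solved from fold and p, taking the fold as (pileup + 1) over (background + 1) and p as a Poisson tail, where the fold was 1.5 or more. For a window, the local background of a library was the median over its own peaks there, which differ between libraries. Read totals were not used here, so depth is known only through the background and list length. Regions named are those within 1 kb of a start, the 3 of each locus with the most libraries, and up to 3 per comparison that changed; RARA +23.1 kb, RARB +26.1, +112.2 and +120.0 kb, RARB +20.9 kb, RARA +2.1 kb, CYP26B1 +2.8, +10.2 and -1.3 kb, RARB +175.9 kb and CRABP2 -5.7, +8.3, +13.0, +28.3, -41.2 and +45.4 kb, where outside these, were named after their values were seen. Functions were tested on simulated data, with Python 3.11.15 and scipy 1.17.1 for the rest. Alternatives were full lists, a −log10 q of at least 5, cover of at least 50% of a region, ordering by fold, percentiles in place of normal scores, a replicate block and each library left out. Other genes of the pathway and cell type markers were not analysed here, since no hg19 annotation was used.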

Additional observations from a re-analysis of the deposited data

Results flagged for a closer look

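By strength rank, and in a set without 2 Kelly libraries, the response of RARA +32.6 kb to shAhR-2 differed between the lines. Relative to pLKO, the strength rank shifted by 0.51 in Kelly and by -0.90 in BE2C, a difference of 1.41 ± 0.42 (SE) with an adjusted p of 0.0481 by limma over 12805 regions, of which 914 passed the same test. Its Kelly percentiles, among the 15862 regions common to that line, were 9.02, 4.05 and 6.96 with shAhR-2 and 5.30 and 0.797 with pLKO. By fold both lines averaged lower with shAhR-2. The means were 4.50 (n = 3) against 4.84 in pLKO (n = 2) in Kelly, and 4.62 against 5.56 in BE2C (n = 3 each). The test could be made only without Kelly shAhR-1 replicate 1 and Kelly pLKO replicate 2, which have no peak there, so the Kelly value rests on libraries with a peak, a choice made after the data were seen. None of the other 7 members tested for shAhR-2, and none of the 8 for shAhR-1, differed between the lines, and none of the 3 testable with all libraries did.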

How the results depend on the processing

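The RARB -0.1 kb rise with shAhR-1 in BE2C stayed past the threshold in all 9 alternatives that could test it, and the RARA -1.9 kb fall with shAhR-2 in all 9; at a −log10 q of at least 5 neither could be ranked. The DHRS3 +22 kb fall held in 8 of 9, RARA +41.9 kb in 4 of 9 and RARA +32.6 kb in 3 of 10. No direction reversed.

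The number of BE2C members shifted with shAhR-2, 4 as reported, was 2 on the percentile scale and 2 when ranked by fold (1 higher, RARB -0.1 kb, and 1 lower, RARA -1.9 kb), of 12 tested. Over all 18250 regions, 2118 were lower and 1894 higher on the percentile scale, and 2432 lower and 2144 higher by fold. At a −log10 q of at least 5 the number was 1 of 6 tested, where 1835 of 14073 regions were lower and 1686 higher. It was 2 to 4 with a library left out, and 2 without shAhR-2 replicate 2 (1318 of 18261 regions lower) and without shAhR-2 replicate 3 (1237 of 18254). With shAhR-1 the number was 0 at that q and 1 in every fit with a library left out. In Kelly it was 0 to 1 for each hairpin with libraries left out; for shAhR-1 the 1 was CRABP2 -41.2 kb, without shAhR-1 replicate 1 (-1.45, adjusted p of 0.0344 in limma) or without both short lists. Gained or lost members in Kelly shAhR-1, 1 as reported, were 2 in full lists and 0 when lists were shortened by fold. They were 1 when peaks had to cover 50% of a region (CRABP2 -45.9 kb, with 485 of 16749 regions lost) and 1 to 4 with a library left out. In Kelly shAhR-2, 1 as reported, they were 3 in full lists and 3 at a −log10 q of at least 5, of 38 members, with 1 region in common (RARB +112.2 kb) and 15.3% of all regions gained there, and 0 when peaks had to cover 50% of a region or lists were shortened by fold. In BE2C shAhR-2, 5 as reported, they were 8 of 44 at a −log10 q of at least 5, all gained, where 19.1% of all regions were gained, and 5 to 7 with a library left out; in BE2C shAhR-1 they were 0 to 2. Line differences were 0 to 1 with a library left out, in presence and in rank. The cause of these moves was not tested, beyond fewer or more regions entering.

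With the replicate number as a block, 1 member rose with shAhR-1 and 4 fell with shAhR-2 in BE2C, as without it, and 0 changed in Kelly. Same-numbered libraries of a line correlated between -0.172 and 0.0906 in their deviations from group means, so the numbers were not taken to pair libraries.

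The shortest list, 9204 peaks, left 11 members in the Kelly presence comparison at the matched length, against 49 in full lists, so most member regions could not be compared at that length.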
